A study of Mus musculus with 18 samples.

Results

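The genes described here are 40 genes that mark the endothelium, the cell layer lining blood vessels. They were chosen as a list of names, and every array probe annotated to a listed symbol was taken. Of the 25697 probes on the arrays, 53 belonged to 37 of the 40 genes, and 10 genes had several probes. Array values of Cldn5, Ecscr and Tspan7 were not analysed here. In lung 36 members were tested among 12571 genes, and in the cultured cells 11 members among 9017 genes.

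Endothelial cells hold together through adhesion molecules such as VE-cadherin and PECAM-1, and they keep their identity through ETS, SOX and Kruppel-like transcription factors. Their surface receptors read growth factors, peptide hormones and flow, and their secreted and membrane proteins keep blood fluid. In the lung most of these cells form the dense capillary bed around the alveoli, and some capillary surface genes, such as Car4, are particularly strong there.

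The study asked which genes depend on interleukin-4 (IL-4), a cytokine of type 2 immunity, when hypoxia inflames the lung vessels. Whole-lung RNA came from 12 male C57BL/6 mice of 8 to 12 weeks, either wild type (WT) or IL-4 knockout (KO), which spent 4 days in room air (normoxia) or at 10% O2 (hypoxia), with 3 mice in each of 4 groups. Pulmonary microvascular endothelial cells (PMVEC) had been isolated from female C57BL/6 mice of 4 to 6 weeks, were used at passages 3 to 5, and received recombinant IL-4 (rIL-4) at 50 ng/mL or vehicle for 24 h, with 3 samples in each group. The design of the knockout allele is not stated in the labels, the PMVEC samples are not described as separate isolations, and p-values there measure only the spread between these samples.

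Depth on a bead array is the signal above background. Each lung array detected 60.2% to 64.2% of its probes and each PMVEC array 45.1% to 46.9%, where detected means a detection p under 0.05 against negative control beads. The normalized log2 signal of Il4 was 7.25 to 8.26 on the 6 WT arrays and 4.97 to 5.86 on the 6 KO arrays; where the probe lies relative to the deletion is not stated in the labels. Transcripts of liver and plasma proteins stood highest in the KO normoxia lungs, with summed levels of 188189, 64625 and 41659 against 11506 to 24117 on the other 9 lung arrays. The sum of the leukocyte markers was highest on WT normoxia 1 and 2, at 79262 and 47531 against 16099 to 27917 elsewhere. It was carried by S100a8, the brightest marker of that list, at log2 signals of 15.52 and 14.82 against 12.22 to 13.56 elsewhere, and by S100a9. Other leukocyte markers went the other way. Cd79a, Cd79b and Ms4a1 were lowest on these 2 arrays, with Cd79a at 8.60 and 8.68 against 9.14 to 10.50. Summed levels here add the normalized linear signals of a list, so its brightest genes weigh most.

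In wild-type lung, 4 days of hypoxia moved the endothelial genes in both directions. Emcn, Cd34 and Gja4, all of the adhesion and junction group, rose by 0.71 to 1.26 on the log2 scale, while Plvap, Eng, Sema3g, Sox7, Cd93, Sox18, Ramp2, Clec14a and Tal1 fell by 0.49 to 1.59. The other 24 members did not pass the test, a limma fit over all lung arrays with adjusted p under 0.05 over all genes. Thus 3 of the 36 members rose (8.33%) and 9 fell, where 7.48% of all genes tested rose and 4.32% fell (11.8% in either direction). The median log2 change was -0.20 over the members and -0.00065 over all genes. Whole lung holds many cell types, so fewer endothelial cells and less RNA per cell cannot be told apart.

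**Figure D1:**
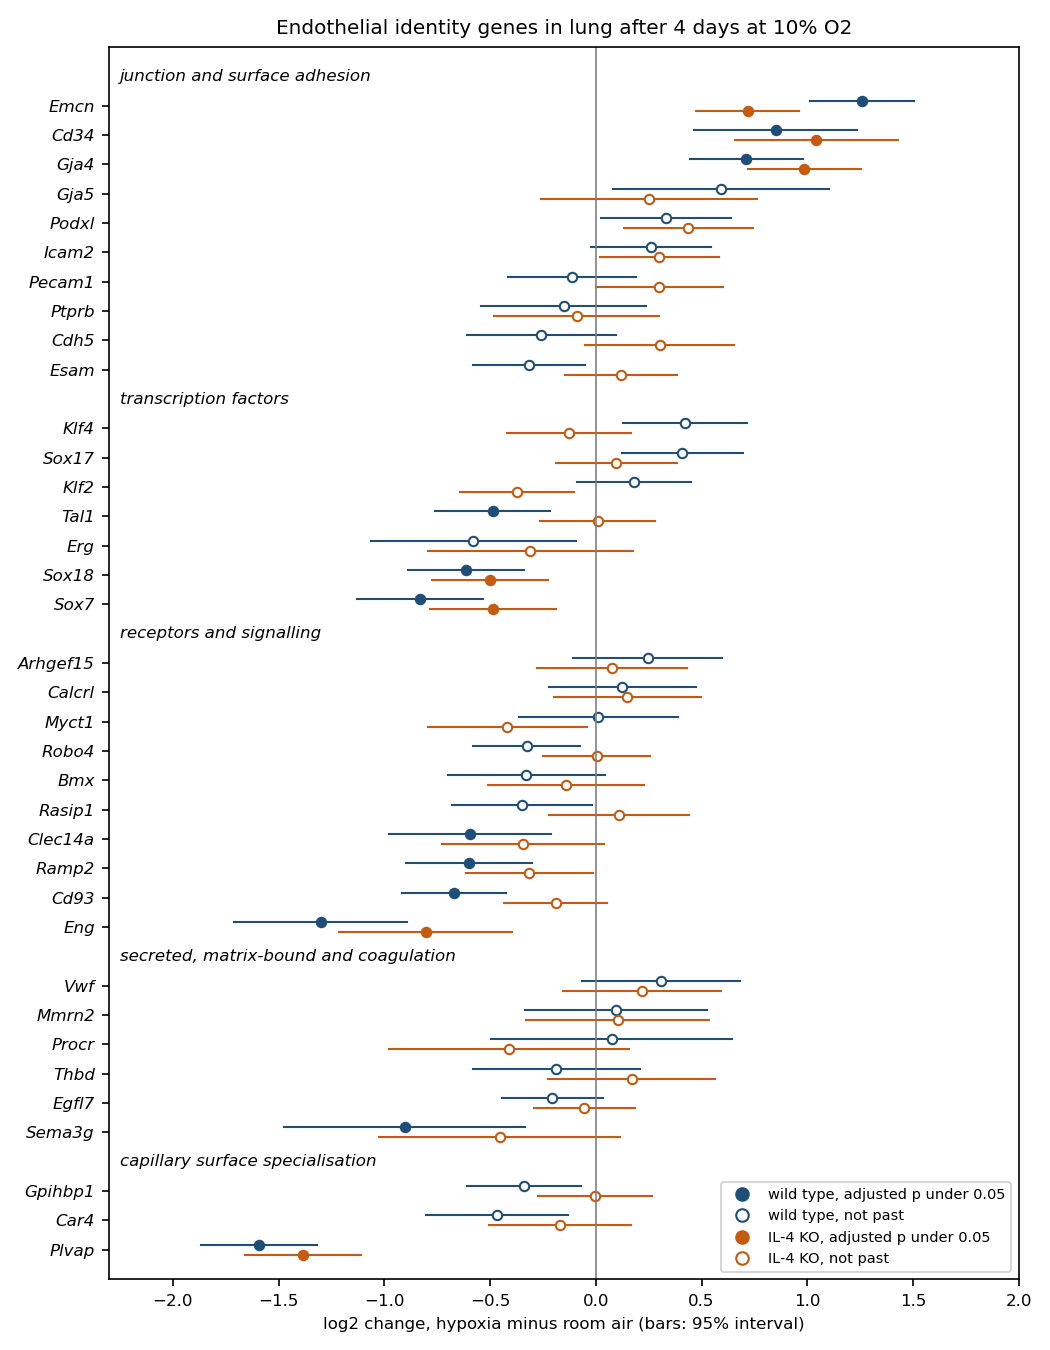
Log2 change from room air to 10% O2 of the 36 members tested in lung, in wild type and in IL-4 knockout, ordered by role; bars are 95% intervals and filled points passed an adjusted p of 0.05. Emcn, Cd34, Gja4, Plvap, Eng, Sox7 and Sox18 are filled in both genotypes, with the same sign in each.

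The groups of arrays did not overlap for 5 members that lay higher and 15 that lay lower under hypoxia. Among all genes tested, 28.9% did not overlap, with 15.6% wholly higher and 13.3% wholly lower. By role, members were counted by adjusted p under 0.05, where 7.48% of all genes rose and 4.32% fell. The adhesion and junction group had 3 of 10 tested members risen and 0 fallen. The transcription factors had 3 of 7 fallen, the receptors and signalling genes 4 of 10, the secreted and coagulation genes 1 of 6 and the capillary surface genes 1 of 3, with 0 risen in these groups.

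The promoters of 4 of these genes are shown because Emcn, Cd34 and Gja4 rose together and Eng fell, in both genotypes. They are the 250 bases before the annotated start in RefSeq, build GRCm38.p6, where 21 members were matched, Cldn5 and Tspan7 among them. Emcn lies at chr3:137340828-137341077 on the plus strand, Cd34 at chr1:194938571-194938820 on the plus strand, Gja4 at chr4:127314040-127314289 on the minus strand and Eng at chr2:32646345-32646594 on the plus strand. Sequences run 5′ to 3′ along the gene's strand. Capitals mark AGGAAG or its reverse complement, a core that ETS factors such as ERG bind.
Emcn: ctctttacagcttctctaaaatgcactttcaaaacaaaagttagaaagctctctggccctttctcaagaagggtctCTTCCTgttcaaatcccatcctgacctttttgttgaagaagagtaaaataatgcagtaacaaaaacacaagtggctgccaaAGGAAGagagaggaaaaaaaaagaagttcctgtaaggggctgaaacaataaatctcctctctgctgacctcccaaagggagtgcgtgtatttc
Cd34: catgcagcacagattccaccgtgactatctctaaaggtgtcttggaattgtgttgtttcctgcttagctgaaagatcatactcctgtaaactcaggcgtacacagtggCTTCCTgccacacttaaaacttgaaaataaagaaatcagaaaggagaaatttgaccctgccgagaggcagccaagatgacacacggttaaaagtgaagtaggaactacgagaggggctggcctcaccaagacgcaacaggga
Gja4: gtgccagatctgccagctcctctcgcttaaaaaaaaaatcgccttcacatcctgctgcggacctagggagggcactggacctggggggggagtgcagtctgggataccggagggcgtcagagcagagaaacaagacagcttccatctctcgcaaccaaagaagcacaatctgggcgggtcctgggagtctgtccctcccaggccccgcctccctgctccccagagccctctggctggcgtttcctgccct
Eng: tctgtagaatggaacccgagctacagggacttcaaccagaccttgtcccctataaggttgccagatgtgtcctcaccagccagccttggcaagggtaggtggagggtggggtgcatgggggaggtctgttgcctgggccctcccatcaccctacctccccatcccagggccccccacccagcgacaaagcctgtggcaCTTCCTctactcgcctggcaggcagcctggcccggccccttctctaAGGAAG

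Emcn and Eng each held 2 such matches, Cd34 held 1 and Gja4 held 0. Over all members, 10 of 21 held AGGAAG on either strand, against 32.3% of the 27025 genes in the table. ACAAT, a core of SOX factors, was present in 8 of 21 members against 30.9% of genes. CACCC, a core of Kruppel-like factors, was present in 13 of 21 against 54.5%, and ACGTG, a core of hypoxia-inducible factors, in 2 of 21 against 18.5%. None of these 4 strings contains another, both strands were searched, and a match is only a match of letters.

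Emcn encodes endomucin, a sialomucin on capillary and venous endothelium. Its normalized log2 signal was 11.53, 11.32 and 11.61 in wild-type room-air lungs, 12.76, 12.64 and 12.83 in wild-type hypoxic lungs, 11.87, 12.05 and 12.03 in knockout room-air lungs and 12.68, 12.67 and 12.76 in knockout hypoxic lungs. All 6 hypoxic arrays lay above all 6 room-air arrays, and within room air the knockout lay above the wild type. The log2 change was 1.26 in wild type (SE 0.11, adjusted p = 2.04e-05) and 0.72 in the knockout (SE 0.11, adjusted p = 0.00157).

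Cd34, a sialomucin of endothelial and progenitor cells, had log2 signals of 9.51, 9.27 and 9.76 in wild-type room-air lungs, 10.50, 10.39 and 10.19 in wild-type hypoxic lungs, 9.69, 9.52 and 9.09 in knockout room-air lungs and 10.26, 10.59 and 10.57 in knockout hypoxic lungs. Every hypoxic array again lay above every room-air array. It rose 1.80-fold in wild type (log2 change 0.85, adjusted p = 0.00837) and 2.06-fold in the knockout (1.04, adjusted p = 0.00287).

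Gja4 encodes connexin 37, a gap junction protein of arterial endothelium. Its log2 signals were 10.65, 10.90 and 10.96 in wild-type room-air lungs, 11.67, 11.44 and 11.54 in wild-type hypoxic lungs, 10.57, 10.82 and 10.77 in knockout room-air lungs and 11.75, 11.77 and 11.61 in knockout hypoxic lungs. The hypoxic and room-air arrays did not overlap. The log2 change was 0.71 in wild type (SE 0.12, adjusted p = 0.00264) and 0.99 in the knockout (adjusted p = 0.000276). Gja5, which encodes connexin 40 of arterial endothelium, was not past the threshold in either genotype (0.59, adjusted p = 0.13, and 0.25, adjusted p = 0.61).

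The defining junction molecules did not pass. In wild type Pecam1 changed by -0.11, Cdh5, which encodes VE-cadherin, by -0.26, Esam, a tight-junction adhesion molecule, by -0.32, and Ptprb, the phosphatase that acts on VE-cadherin, by -0.15. Their adjusted p-values lay at or above 0.10. Podxl, the sialomucin podocalyxin, passed only when both genotypes were averaged (log2 change 0.38, SE 0.10, adjusted p = 0.0196), a call that was lost without WT normoxia 1. Averaged over genotypes, 12 members passed, 4 risen and 8 fallen, where 17.5% of all genes passed, 10.2% higher and 7.37% lower.

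**Figure D2:**
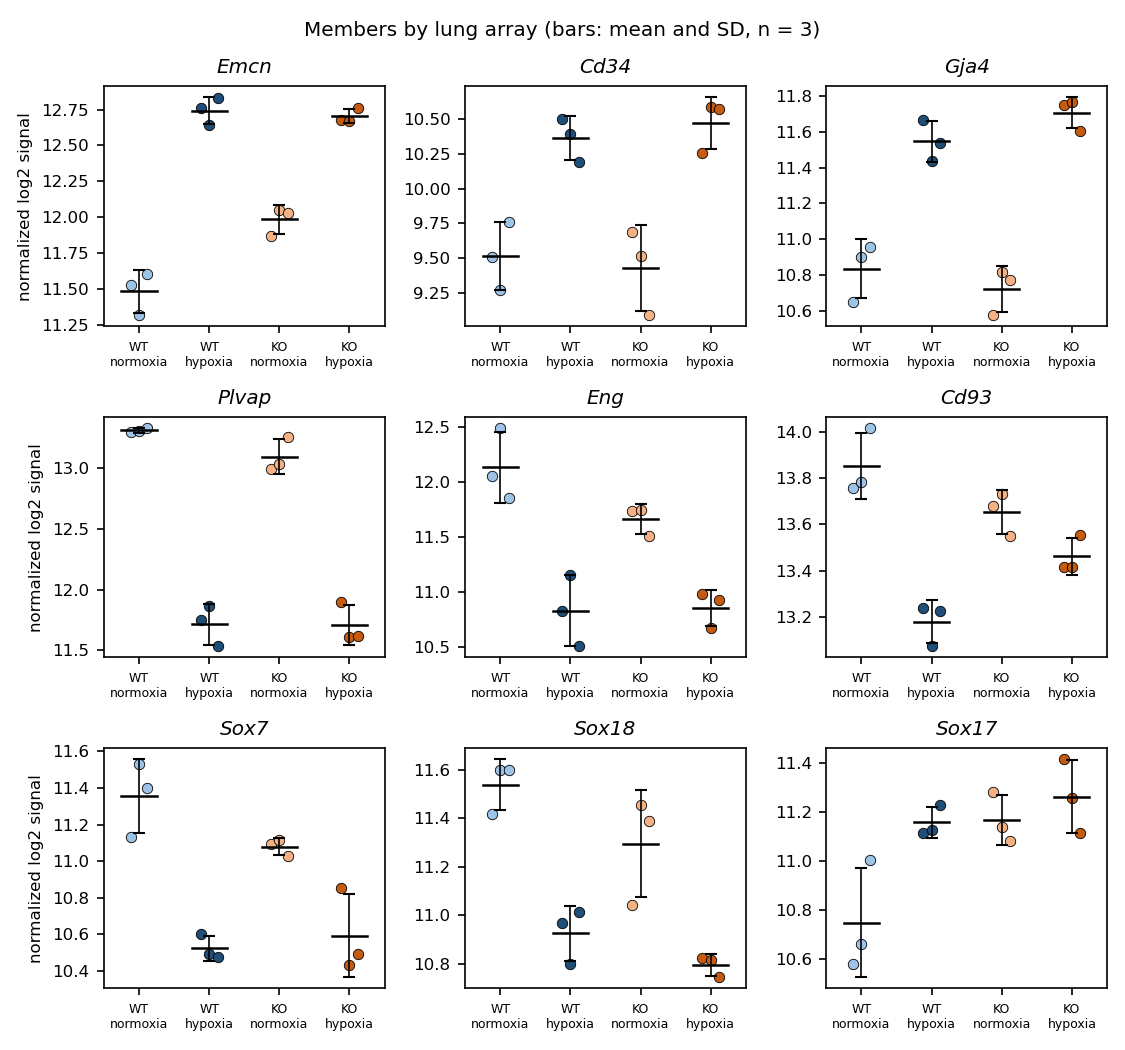
Normalized log2 signal of 9 members on each of the 12 lung arrays, by genotype and oxygen; points are arrays, bars the mean and SD of 3. Emcn, Cd34 and Gja4 are higher on all hypoxic arrays, Plvap, Eng and Sox7 are lower on all of them, and Sox17 overlaps between oxygen conditions.

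Plvap had the largest change among the members. It encodes the protein that builds the diaphragms of fenestrae and caveolae. Its log2 signal was 13.30, 13.30 and 13.33 in wild-type room-air lungs and 11.75, 11.86 and 11.53 in wild-type hypoxic lungs. In the knockout it was 12.99, 13.03 and 13.26 in room air and 11.90, 11.61 and 11.62 under hypoxia. All hypoxic arrays lay more than 1 log2 unit below all room-air arrays. The fall was 3.01-fold in wild type (log2 change -1.59, SE 0.13, adjusted p = 9.64e-06) and 2.61-fold in the knockout (-1.39, adjusted p = 3.25e-05). The other capillary surface genes did not pass in wild type: Car4, a membrane carbonic anhydrase, changed by -0.47 (adjusted p = 0.073) and Gpihbp1, which carries lipoprotein lipase to the capillary lumen, by -0.34 (adjusted p = 0.10).

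Among the receptors, Eng fell most. It encodes endoglin, a co-receptor for BMP ligands. Its log2 signals were 12.05, 12.49 and 11.86 in wild-type room-air lungs, 10.82, 11.15 and 10.51 in wild-type hypoxic lungs, 11.73, 11.75 and 11.51 in knockout room-air lungs and 10.98, 10.67 and 10.92 in knockout hypoxic lungs. Hypoxic arrays lay below room-air arrays without overlap. The log2 change was -1.30 in wild type (SE 0.19, adjusted p = 0.000793) and -0.80 in the knockout (SE 0.19, adjusted p = 0.0190), and the knockout call was lost without KO normoxia 1, KO normoxia 2 or KO hypoxia 2 (adjusted p of 0.0659 to 0.0750).

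Cd93, a C-type lectin receptor of endothelial adhesion and angiogenesis, stood at 13.76, 13.78 and 14.02 in wild-type room-air lungs against 13.24, 13.07 and 13.23 in wild-type hypoxic lungs. The KO arrays stood between these groups, at 13.68, 13.73 and 13.55 in room air and 13.42, 13.42 and 13.55 under hypoxia. Cd93 fell by 0.67 on the log2 scale in wild type (SE 0.11, adjusted p = 0.00228), and its value in the knockout was -0.19 (adjusted p = 0.38). Ramp2, which with Calcrl forms the adrenomedullin receptor, fell by 0.60 in wild type (adjusted p = 0.0140), a call lost without WT normoxia 1 or WT hypoxia 3 (adjusted p = 0.0654 and 0.0537). Calcrl itself changed by 0.13 there and did not pass (adjusted p = 0.68).

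Clec14a, a lectin related to Cd93, and Sema3g, a secreted semaphorin of arterial endothelium, were dim and close to the threshold. Clec14a fell by 0.60 (adjusted p = 0.0459) and Sema3g by 0.90 (adjusted p = 0.0427) in wild type. The Clec14a call was lost without any of the 6 WT arrays, KO normoxia 2 or KO hypoxia 2 (adjusted p of up to 0.149). It was also lost with median scaling (-0.56, adjusted p = 0.0900) and on the authors' deposited log2 values (-0.44, adjusted p = 0.121). The Sema3g call was lost without WT normoxia 1 or 2, any WT hypoxia array, KO normoxia 2 or 3, or KO hypoxia 3 (adjusted p of up to 0.150). Robo4, Rasip1, Bmx, Arhgef15 and Myct1, the other signalling genes tested, did not pass in wild type. Among coagulation and matrix genes, Vwf, the platelet-binding von Willebrand factor, changed by 0.31 (adjusted p = 0.29) and Thbd, the thrombin receptor thrombomodulin, by -0.19 (adjusted p = 0.58), neither of which passed. Egfl7, Mmrn2 and Procr did not pass either.

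Sox7, Sox17 and Sox18 are the SOX factors of the F subgroup, which act in vessel development. Sox7 had log2 signals of 11.13, 11.53 and 11.40 in wild-type room-air lungs, 10.60, 10.49 and 10.48 in wild-type hypoxic lungs, 11.09, 11.12 and 11.03 in knockout room-air lungs and 10.85, 10.43 and 10.49 in knockout hypoxic lungs. It was lower on all hypoxic arrays, and fell by 0.83 in wild type (adjusted p = 0.00197) and by 0.49 in the knockout (adjusted p = 0.0461). Sox18 stood at 11.42, 11.60 and 11.60 in wild-type room-air lungs, 10.97, 10.80 and 11.01 in wild-type hypoxic lungs, 11.04, 11.46 and 11.39 in knockout room-air lungs and 10.82, 10.81 and 10.74 in knockout hypoxic lungs. It fell by 0.61 in wild type (adjusted p = 0.00802) and by 0.50 in the knockout (adjusted p = 0.0276). With median scaling in place of quantile normalization the wild-type call of Sox18 was lost, at a change of -0.55 (adjusted p = 0.0554). It was also lost on the authors' deposited log2 values, at -0.52 (adjusted p = 0.0677). The knockout calls of both genes depended on single arrays. That of Sox7 was lost without any KO array but KO hypoxia 1, and without any WT hypoxia array or WT normoxia 3, and that of Sox18 without any KO array but KO normoxia 1. Without those arrays the adjusted p reached 0.169 for Sox7 and 0.112 for Sox18, and with median scaling they were 0.206 and 0.196. On the authors' deposited log2 values these adjusted p-values were 0.216 for Sox7 and 0.215 for Sox18.

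Sox17, the factor tied to arterial identity, stood at 10.58, 10.66 and 11.00 in wild-type room-air lungs, 11.11, 11.13 and 11.23 in wild-type hypoxic lungs, 11.28, 11.14 and 11.08 in knockout room-air lungs and 11.42, 11.26 and 11.12 in knockout hypoxic lungs. The WT groups did not overlap, yet its change of 0.41 was not past the threshold (SE 0.13, adjusted p = 0.0658), and in the knockout it was 0.10. The difference between Sox17 and Sox7 within an array was -0.87 to 0.19 in room air and 0.51 to 0.82 under hypoxia, a mean shift of 0.91. The difference between Sox17 and Sox18 shifted by 0.81, from -0.94 to 0.24 in room air to 0.15 to 0.59 under hypoxia. These pairs were chosen after their values were seen, so the shifts are a description with no test.

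Of the other transcription factors, Tal1, a factor of early blood and endothelial development, fell by 0.49 in wild type (adjusted p = 0.0247) and had a value of 0.01 in the knockout. The Tal1 call was lost with median scaling (-0.46, adjusted p = 0.0641) and on the authors' deposited log2 values (-0.35, adjusted p = 0.107). It was also lost without WT normoxia 2, WT hypoxia 1 or WT hypoxia 2 (adjusted p of up to 0.0969). Erg, the ETS factor that maintains endothelial identity, changed by -0.58 in wild type (adjusted p = 0.12) and -0.31 in the knockout, and did not pass. Klf2 and Klf4, which respond to blood flow, did not pass for hypoxia in either genotype, with Klf4 read by its brightest probe.

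In the knockout, hypoxia called 7 members, the 3 risers and Plvap, Eng, Sox18 and Sox7, where 8.78% of all genes passed, 4.96% higher and 3.82% lower. With the mean level of liver transcripts as a covariate only Plvap passed, and the calls over all genes went from 1104 to 157. The changes of the other 6 under that fit were 1.35 for Cd34, 0.76 for Gja4, 0.58 for Emcn, -0.72 for Eng, -0.78 for Sox18 and -0.60 for Sox7, with adjusted p-values of 0.0524 to 0.43. The liver list itself fell in 12 of 13 members in that comparison, and its level stood highest on the KO normoxia arrays, which also enter the comparison of the genotypes in room air. Liver level and group thus largely coincide, and the fit with the covariate cannot tell them apart.

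Markers of some other lung cells moved with hypoxia as well, where 7.48% of all genes rose and 4.32% fell in wild type. Most alveolar and airway epithelial markers did not pass in wild type, with 1 of 12 risen, 0 fallen and a median log2 change of -0.01. Of 13 leukocyte markers 1 rose and 3 fell there. Fibroblast and mesenchymal markers rose in 6 of 14 in wild type, from summed levels of 53107 to 60443 in room air to 105523 to 112644 under hypoxia. Smooth muscle and pericyte markers rose in 5 of 12, from 16593 to 19765 to 28397 to 28772, and 10 of 10 cell cycle genes rose. The summed level of the 36 endothelial members was 203369 to 218763 in WT normoxia and 177775 to 183141 in WT hypoxia, without overlap. This sum includes bright members already called as fallen, such as Ramp2, Plvap and Cd93, and is not separate from those calls. In the knockout it was 185980 to 204643 in room air and 182096 to 203527 under hypoxia, and the groups overlapped. The part of the other cell types in the member results was not tested.

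A separate list of 60 further endothelial genes was read beside the members, of which 54 were tested in lung. In wild type 5 rose and 19 fell, where 7.48% of all genes rose and 4.32% fell. Lyve1, a hyaluronan receptor of lymphatic and some other endothelium, fell by 1.97, Slc6a2, the noradrenaline transporter, by 1.66, Hey1, a Notch target, by 1.32, Hpgd, which degrades prostaglandins, by 1.30, and Lpl, lipoprotein lipase, by 1.15. Vegfc, the lymphatic growth factor, rose by 1.22. In the knockout 5 rose and 8 fell, where 4.96% of all genes rose and 3.82% fell. Lyve1 fell by 0.94 and Vegfc rose by 1.39 there, while Lpl had a value of -0.10 and did not pass (adjusted p = 0.79).

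Whether the response depended on IL-4 was read from the difference between the hypoxia effects of the genotypes. For 0 of 36 members did limma call that difference, where 0.0159% of all genes were called, and 7 of the 36 members had an unadjusted p under 0.05, as did 1564 of the 12571 genes. These were Emcn (-0.54), Klf2 (-0.55), Klf4 (-0.55), Cd93 (0.48), Tal1 (0.50), Esam (0.43) and Cdh5 (0.56), with adjusted p-values of 0.16 to 0.33. The difference was above 0 for 27 of 36 members, with a median of 0.20, against 6778 of 12571 genes and a median of 0.025. For Cdh5 its 95% interval ran from 0.06 to 1.06, and for Plvap, which fell in both genotypes, the difference was not called either. Calls that passed in wild type and not in the knockout, such as those of Cd93 and Ramp2, are therefore not shown to differ between genotypes.

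**Figure D3:**
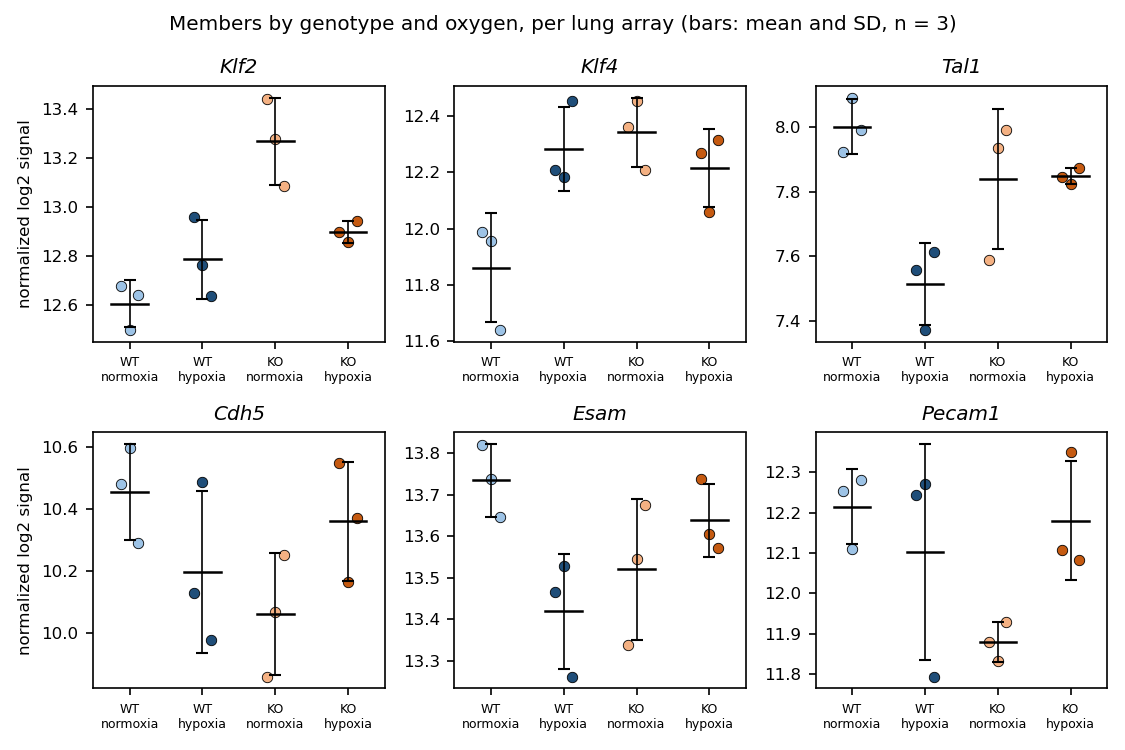
Normalized log2 signal of 6 members on each of the 12 lung arrays, by genotype and oxygen; points are arrays, bars the mean and SD of 3. Klf2 is higher on all KO normoxia arrays than on all WT normoxia arrays, while Cdh5 and Esam overlap between genotypes under at least 1 oxygen condition.

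In room air the knockout differed from the wild type in 2 members, both higher, where 7.05% of all genes passed, 4.09% higher and 2.96% lower. Most members leaned lower without passing. The change was below 0 for 25 of 36 members, with a median of -0.13, against 6588 of 12571 genes and a median of -0.016. The groups of arrays did not overlap for 4 members that lay higher and 12 that lay lower, against 1563 and 1519 of all genes. Klf2, a Kruppel-like factor of quiescent endothelium, had log2 signals of 12.68, 12.49 and 12.64 in wild-type room-air lungs, 12.96, 12.76 and 12.64 in wild-type hypoxic lungs, 13.44, 13.28 and 13.08 in knockout room-air lungs and 12.90, 12.85 and 12.94 in knockout hypoxic lungs. The KO normoxia arrays were the highest of all lung arrays. Klf2 was 1.59-fold higher in the knockout (log2 change 0.67, SE 0.12, adjusted p = 0.00812), and Emcn 1.42-fold higher (0.50, SE 0.11, adjusted p = 0.0194). The Emcn call was lost without WT normoxia 1, WT normoxia 2 or KO normoxia 2, and with median scaling (adjusted p of 0.0527 to 0.0853). It was also lost on the authors' deposited log2 values (0.48, adjusted p = 0.0701).

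Klf4, the related factor read by 3 probes, lay at 11.99, 11.96 and 11.64 in wild-type room-air lungs, 12.21, 12.18 and 12.45 in wild-type hypoxic lungs, 12.36, 12.45 and 12.21 in knockout room-air lungs and 12.27, 12.06 and 12.32 in knockout hypoxic lungs. WT normoxia was the lowest group, and the room-air difference of 0.48 did not pass (adjusted p = 0.0515). The other probes of Klf4 gave 0.77 and 0.61 for the same difference. For hypoxia in the knockout they gave -0.53 and -0.50, against -0.13 for the brightest probe. For the difference between the hypoxia effects of the genotypes each gave -0.80, against -0.55.

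The liver list rose in 11 of 13 members in this comparison, and with its level as a covariate 0 members and 2 of all genes were called, against 886 genes without it. Under that fit the room-air difference was 0.67 for Emcn (adjusted p = 0.26) and 0.40 for Klf2 (adjusted p = 0.53). Because the liver level was highest on the KO normoxia arrays, this fit cannot separate it from the group, and the lost calls settle nothing. Without the covariate, 0 of the 54 further endothelial genes tested rose and 10 fell in the room-air knockout, led by Tmem252 (-1.69), Slc6a2 (-1.31) and Lyve1 (-1.17). Over all genes 4.09% were higher and 2.96% lower. Under hypoxia 0 members differed between genotypes, where 0.0557% of all genes passed, and 4 of the 36 members had an unadjusted p under 0.05, as did 945 of the 12571 genes.

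Some genes with several probes gave different answers by probe. For Pecam1 the brighter probe changed by -0.11 and the other by -0.41 in wild-type hypoxia, with 0.30 and 0.02 in the knockout. For Bmx, a tyrosine kinase of arterial endothelium, the brightest probe changed by -0.33 and another by -0.59, and the mean of its kept probes passed in wild type at -0.47 (adjusted p = 0.0177). For Arhgef15 the signs differed, at 0.25 and -0.35. Both probes of Sox7 (-0.83 and -0.76) and both of Sox17 (0.41 and 0.39) gave like values.

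One member, S1pr1, the sphingosine-1-phosphate receptor, was detected on 0 of 12 lung arrays, at raw signals of 69.0 to 97.0 where the lowest detected signal on an array was 86.8 to 109. Of the other 36 members, 35 were detected on all 12 lung arrays, and Myct1, a small endothelial protein, on 9. Ranked among all probes of an array, the median member stood at the 92.8 percentile in lung.

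In the PMVEC most of these genes were not detected. Only 7 of 37 members were detected on all 6 arrays, 7 on some and 23 on none, and the median percentile was 28.8. Of the 35 members detected on all 12 lung arrays, 7 were detected on all 6 PMVEC arrays and 21 on none. Of the 10561 genes with that lung detection, 72.5% were detected on all 6 PMVEC arrays and 16.9% on none.

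**Figure D4:**
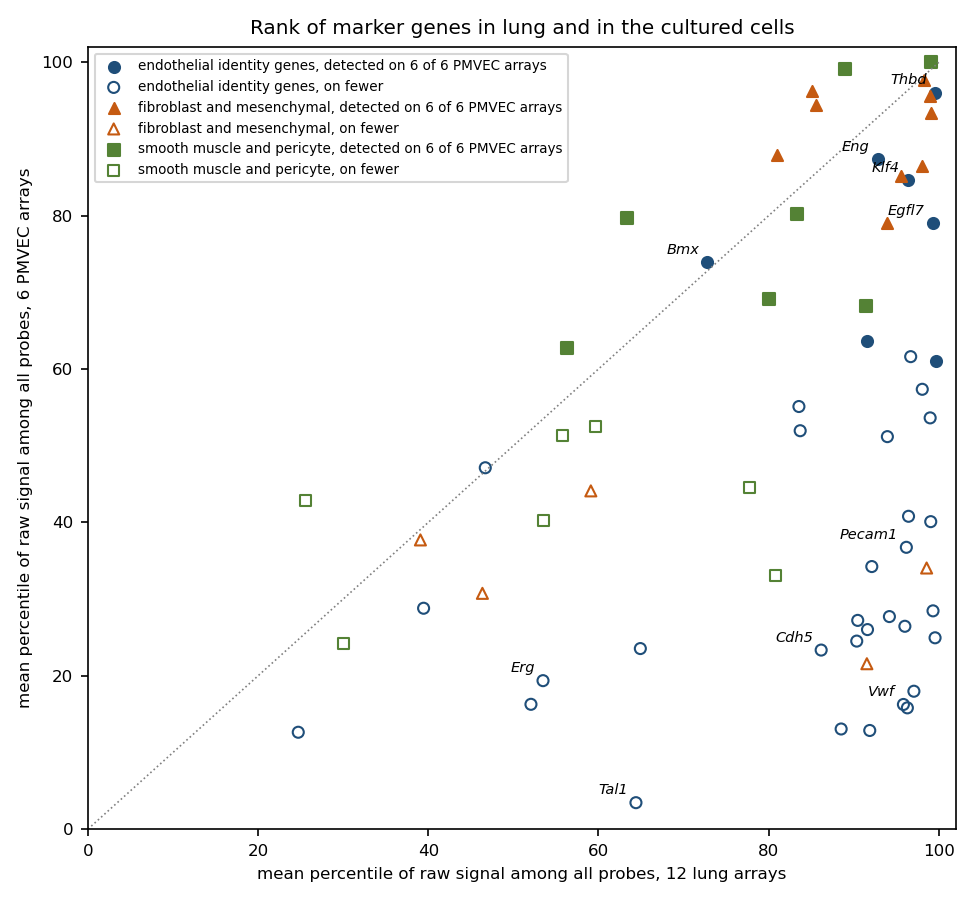
Mean percentile of raw signal among all probes of an array, 12 lung arrays across and 6 PMVEC arrays up, for 37 endothelial identity genes and for fibroblast and smooth muscle markers; filled points were detected on 6 of 6 PMVEC arrays. Most endothelial points lie at the lower right, with Thbd, Eng, Klf4, Egfl7 and Bmx among the few that are filled, while 9 of 14 fibroblast markers are filled.

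The undetected members included the defining markers of the cell type. Cdh5 had raw signals of 42.0 to 50.4 in the PMVEC against 847 to 1575 in lung. Vwf lay at 36.6 to 46.2 against 3116 to 5675. Both lay below the lowest detected signal on a PMVEC array, which was 55.8 to 64.2. Erg, Tal1, Sox7, Sox17, Sox18, Emcn, Esam, Icam2, Ptprb, Calcrl, Robo4, Rasip1, Mmrn2, Car4 and Gpihbp1 were also detected on 0 of 6 arrays, and Pecam1 on 1 of 6 by 1 of its 2 probes.

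The members detected on all 6 arrays were Thbd, Eng, Klf4, Egfl7, Bmx, Arhgef15 and Ramp2, of which Thbd, Eng and Klf4 are known from other cell types too. Thbd was the brightest, at raw signals of 1512 to 1949, followed by Eng at 415 to 533. Bmx was detected there by 1 of its 4 probes, at 127 to 174, while its other probes lay at 35.5 to 49.4. Arhgef15 was detected by 1 of 2 probes, at 71.9 to 88.1. Ramp2 lay at 61.0 to 81.6, close to the limit of detection, and at a detection p under 0.01 it was detected on 3 of 6 arrays.

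Beside these, 9 of 14 fibroblast and mesenchymal markers were detected on all 6 PMVEC arrays and 5 on none. Among genes detected on all 12 lung arrays, 72.5% were detected on all 6. Col1a1 stood at the 94.4 percentile, Col1a2 at 97.7, Dcn at 95.6 and Pdgfra at 86.4, while Lum, Mfap4, Tcf21, Postn and Fap were not detected. Smooth muscle and pericyte markers were detected on all 6 arrays in 7 of 14 and on none in 5, with Acta2, smooth muscle actin, at a raw signal of 37464. Epithelial markers were detected in 3 of 13 and leukocyte markers in 0 of 13. The labels call these samples endothelial, and most members, defining markers among them, were not detected; the name PMVEC is kept here as the label gives it. Of the 60 further endothelial genes 57 had a probe, and 26 of these were detected on all 6 arrays, and 25 on none. Those detected included Cav1 and Vcam1, which other cells also express, and Flt1 and Notch4, which are more restricted to endothelium, at raw signals of 122 to 194 and 98.1 to 112 against 8161 to 14099 and 2711 to 5663 in lung. Those detected on none included Tek and Tie1, the angiopoietin receptor and its relative.

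The effect of rIL-4 in the PMVEC could thus be tested for 11 members. Plvap and Klf4 rose and 0 fell, where 1.67% of all genes passed, 1.13% higher and 0.543% lower. The other 9 members had log2 changes of -0.30 to 0.20 and did not pass.

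Plvap had raw signals of 67.3, 68.4 and 59.3 with vehicle and 104.7, 94.2 and 83.8 with rIL-4, and was detected on 2 of 3 vehicle arrays. On the normalized log2 scale it stood at 5.13, 5.22 and 4.91 against 6.16, 5.93 and 5.80. The groups did not overlap, at signals close to the limit of detection. The log2 change was 0.88 (SE 0.13, adjusted p = 0.00442), and with all probes tested, without the filter on detection, the same change no longer passed (adjusted p = 0.0528).

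Klf4 stood at 8.15, 8.14 and 8.06 with vehicle and 8.58, 8.49 and 8.75 with rIL-4. All treated samples lay above all vehicle samples. The log2 change was 0.49 (SE 0.11, adjusted p = 0.0479), its other probes gave 0.36 and 0.27, and the call was lost when any of the 6 arrays was left out (adjusted p of 0.0584 to 0.189).

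**Figure D5:**
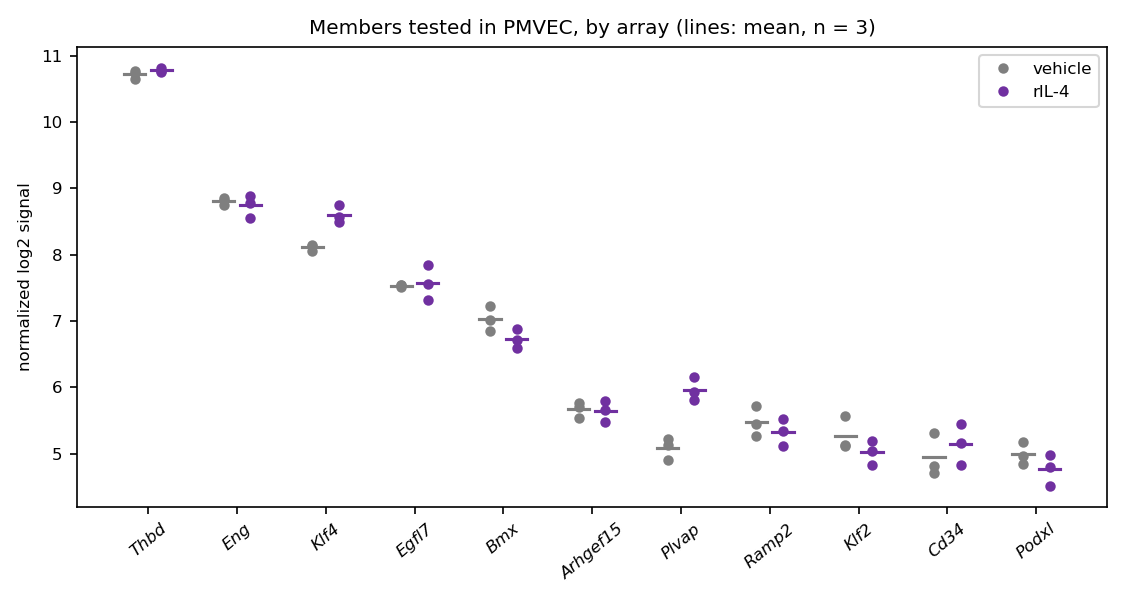
Normalized log2 signal of the 11 members tested in PMVEC, on 3 vehicle and 3 rIL-4 arrays; points are arrays and lines group means. The rIL-4 arrays lie above the vehicle arrays for Klf4 and Plvap, and the groups overlap for the other 9 members.

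Among the 30 further endothelial genes tested in PMVEC, 2 rose and 1 fell, where 1.13% of all genes rose and 0.543% fell. Edn1, which encodes endothelin-1, stood at 5.63, 5.52 and 5.63 with vehicle and 7.14, 7.01 and 7.20 with rIL-4, a rise of 1.52 (SE 0.10, adjusted p = 1.27e-05). Flt1, a VEGF receptor, rose by 0.59 (adjusted p = 0.0136), and Lpl fell by 0.94 (adjusted p = 0.00559).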

How the data were processed

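Illumina mouse bead arrays were run on total RNA, 1 array for each of 12 lungs and 6 PMVEC samples. The authors deposited signal intensity values and a detection p-value per probe without normalization, and a table of log2 values; BeadStudio is named per the submitters' processing notes, with no version. Set against the intensities, the deposited log2 table held array-shifted log2 signals. Within 0.02 it matched for all lung probes, but 7582 probes (29.5%) did not match in PMVEC. The intensity tables, which carry the detection p-values, were used. Which of the deposited tables names the PMVEC probes correctly was not tested.

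Probes were named from the platform annotation. In R 4.3.3, limma 3.58.1 (neqc, offset 16) corrected background, quantile normalized and took log2, separately for lung and PMVEC, which compresses changes of dim probes. A probe was kept if detected (p under 0.05) on 3 or more arrays of its experiment, and a gene was read by its kept probe of highest mean. Models (lmFit, eBayes) were fitted over all groups of an experiment, without a block because chips are not given in the sources used here. All adjusted p-values are Benjamini-Hochberg values over all genes tested. No arrays held identical values. Groups came from the sample labels. The members, gene lists and tests were chosen with earlier results of these data known. All members are accounted for; per-array values are given for members that passed with the largest changes, whose probes disagree or that were not detected, and at most 6 passing genes of the further endothelial list are named per comparison.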

Additional observations from a re-analysis of the deposited data

How the results depend on the processing

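The counts of called members were recomputed under other background corrections, scalings, filters, probe rules and fits, on the authors' log2 table, with a liver covariate, and without each array. Over 227 member results and 5042 alternative values, 4886 kept their side of the threshold, 90 lost a call and 66 gained one. Of the results called in either fit, 0 reversed direction. A change of sign between values that were not called was not counted. The calls of Plvap, Emcn, Eng, Cd34, Cd93, Gja4 and Sox7 for hypoxia in wild-type lung held under every alternative run. The knockout count in room air, 2 members, was 4 without background correction, 4 with a trended robust spread, 4 with array weights, 1 with median scaling, 1 with only the compared groups, 1 on the authors' table and 0 with the liver covariate. The knockout hypoxia count, 7, was 1 with the liver covariate. The hypoxia count averaged over genotypes, 12, was 19 with array weights. The PMVEC count, 2, was 0 without the detection filter and 1 with the mean of a gene's probes. The cause of these moves was not tested. Leaving out each array gave 9 to 14 members for hypoxia in wild type, 4 to 7 in the knockout, lowest without KO normoxia 2 or KO hypoxia 2, 11 to 17 averaged, 1 to 3 for the genotypes in room air, 0 to 0 for the interaction and for the genotypes under hypoxia, and 1 to 1 in PMVEC. At a detection p under 0.01, 6 members were detected on all 6 PMVEC arrays and 27 on none. No paired analysis was possible because the labels number the samples serially and no number pairs animals or cultures across groups. The chip as a block was not run, since the files used here give no chip. The number of arrays and the dimness of the members in PMVEC limit what could be detected.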

Other observations

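The shared variation of the members beyond the groups was described without a value for other genes beside it. Over 630 pairs of the 36 members tested in lung, the median correlation of their deviations from the group means across the 12 arrays was 0.13, and 63.0% of pairs lay above 0. These values share arrays and normalization and are given as a description.

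In the authors' deposited log2 table, 19 of the 53 member probes did not match the intensity tables in the PMVEC arrays, and all 19 values were found under another probe of the same gene. In the lung arrays 0 member probes differed.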
